A study of Sus scrofa with 18 samples.

Results

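Uterine epithelium identity genes are described here in 3 muscle preparations of the pig uterus: CDH1, EPCAM, KRT8, KRT18, KRT19, CLDN3, CLDN4, FOXA2, ELF3 and ESRP1. These 10 genes, of 28210 RefSeq genes placed on chromosomes 1 to 18, X and Y, were chosen by name, with results of these same data already known, so what follows is a description and no test was made on them. Each gene was taken at its RefSeq position on Sscrofa11.1 with 3 kb added on both sides, and every peak that met this window was counted. The tissues were from Yorkshire gilts, on the mesometrial side of the uterus: circular muscle on day 15 of pregnancy (GD15M_CM), longitudinal muscle on day 15 of pregnancy (GD15M_LM) and circular muscle on day 15 of the estrous cycle (CD15M_CM). The pregnant gilts had been mated naturally and the cyclic gilts had not. H3K4me3 and H3K27ac were profiled by CUT&Tag, which cuts and tags DNA beside an antibody-bound histone mark, with 2 gilts per tissue and an IgG control for each. The 18 libraries comprised 6 for each mark and 6 for IgG.

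The epithelia of the uterus are the luminal sheet that faces the conceptus and the glands that reach down into the endometrium. Their cells are held together by E-cadherin and sealed by claudins, carry keratin filaments, and are specified by transcription factors and splicing regulators that smooth muscle cells are not known for. H3K4me3 marks promoters that are active or poised, and H3K27ac marks active promoters and enhancers. The circular muscle is the inner layer of the myometrium and borders the endometrium, where the glands lie, and the longitudinal muscle is the outer layer under the serosa. The labels call these tissues circular and longitudinal muscle, and the question here was how epithelial genes were marked in each.

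Both replicates of a tissue were pooled before peaks were called, so each mark and tissue has 1 list, with no error between gilts and no test. The H3K4me3 lists held 33599, 31910 and 36331 peaks for GD15M_CM, GD15M_LM and CD15M_CM, and the H3K27ac lists 79877, 57010 and 82037 in that order. The lists carry no read counts. The authors report read numbers for their libraries, but these were not used here, so depth was not taken into account. The fold enrichment of a peak is its signal over the control as the peak caller gave it, and its scale differed between lists: its median was 4.64 to 5.66 over the 3 H3K4me3 lists and 3.49 to 3.79 over the 3 H3K27ac lists. Therefore, peaks were ranked by fold enrichment against the others of the same list, and a gene was given the percentile of its strongest peak, or 0 when no peak met its window. A difference of 20 percentile points or more was used as the size worth naming. In bulk tissue, fewer cells of a type and less signal per cell cannot be told apart. Of the labelled tissue's own markers, each of 12 smooth muscle genes, MYH11 (smooth muscle myosin) and DES (desmin) among them, had a peak of both marks in every list.

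H3K4me3 was found at 10 of the 10 epithelial genes in GD15M_CM, 9 in GD15M_LM and 10 in CD15M_CM. H3K27ac was found at 10, 7 and 10. Of all genes, 60.0%, 61.0% and 61.7% had an H3K4me3 peak in the same 3 lists and 62.9%, 61.3% and 64.9% an H3K27ac peak. Of protein-coding genes alone, 73.7%, 74.6% and 75.4% had an H3K4me3 peak and 73.9%, 73.1% and 75.8% an H3K27ac peak. The 7 of 10 for H3K27ac in GD15M_LM was thus slightly under the protein-coding share. The median epithelial gene stood at the 79.4th, 59.0th and 76.9th percentile for H3K4me3, where the median of all genes with a peak was 80.9, 79.5 and 81.8. For H3K27ac the epithelial genes' medians were 76.2, 26.2 and 63.0, against 86.9, 83.2 and 85.2 for all genes with a peak. The epithelial medians counted a gene without a peak as 0, while these medians of all genes left such genes out. With 0 for no peak, the medians of all genes were 62.9, 61.7 and 66.8 for H3K4me3. For H3K27ac they were 62.2, 54.7 and 63.0. Against genes with a peak, the epithelial genes were thus ranked close for H3K4me3 in both circular muscle lists. For H3K27ac they were ranked below them in each list, with the widest gap in GD15M_LM. Against all genes with 0 for no peak, the epithelial median was higher in GD15M_CM and lower in GD15M_LM for both marks. In CD15M_CM it was higher for H3K4me3 and equal for H3K27ac. For protein-coding genes alone, with 0 for no peak, the medians were 73.6, 72.2 and 75.8 for H3K4me3. For H3K27ac they were 77.9, 72.6 and 77.0. Against these, the epithelial H3K4me3 median was higher in both circular muscle lists and lower in GD15M_LM. The epithelial H3K27ac median was lower in each list.

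**Figure D1:**
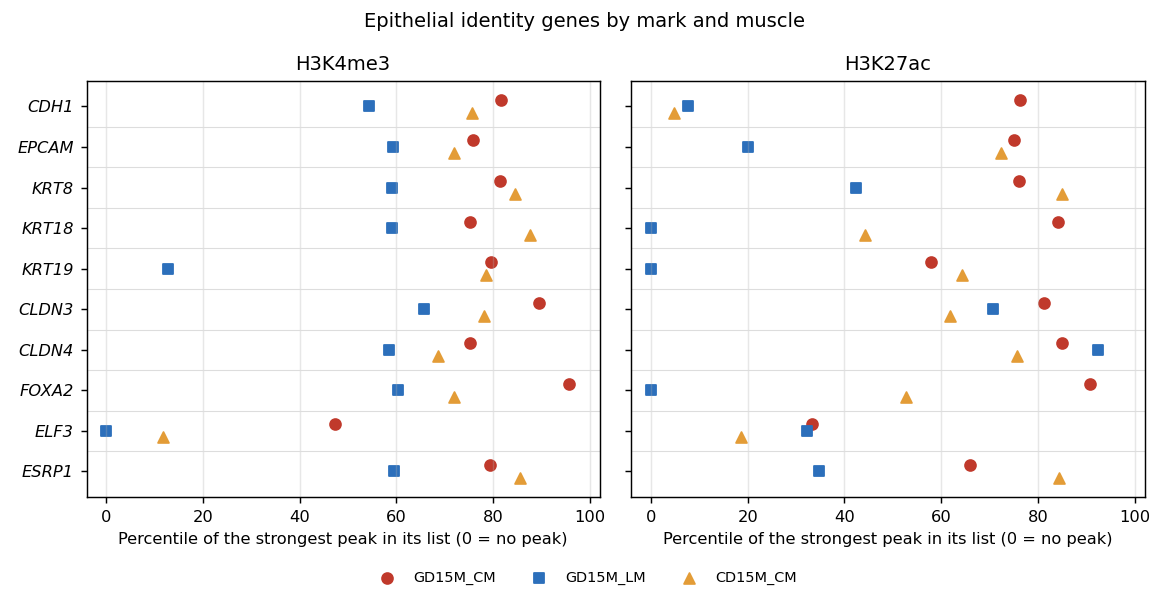
Percentile of the strongest peak within its own list for the 10 epithelial genes, H3K4me3 on the left and H3K27ac on the right, with 1 symbol per tissue and 0 for no peak. The blue squares of GD15M_LM lie to the left of both circular muscle symbols at 10 of 10 genes for H3K4me3 and at 6 of 10 for H3K27ac. The share of all genes with this order was not counted.

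CDH1 (GeneID 100048953, chr6:18075487-18155986) encodes E-cadherin, the adhesion molecule of epithelial junctions. Its strongest H3K4me3 peak was at the 81.6th percentile in GD15M_CM, the 54.3rd in GD15M_LM and the 75.7th in CD15M_CM. These peaks had fold enrichments of 16.2, 6.73 and 16.0 and were 2528, 1485 and 2523 bp long. The circular muscle peaks were almost alike in both respects, and the longitudinal peak was lower and shorter. H3K27ac at CDH1 went differently, at the 76.3rd percentile in GD15M_CM, 7.74th in GD15M_LM and 4.83rd in CD15M_CM. The H3K27ac peaks had fold enrichments of 4.35, 2.64 and 2.4 and were 1563, 603 and 1367 bp long. Cyclic circular muscle thus had H3K4me3 of the pregnant level at this gene together with H3K27ac near the bottom of its list by rank, though not much shorter.

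EPCAM (GeneID 403163, chr3:93169800-93185221) encodes an epithelial cell adhesion molecule. Its H3K4me3 percentiles were 75.8 in GD15M_CM, 59.3 in GD15M_LM and 71.9 in CD15M_CM, with peaks of 2618, 1477 and 2181 bp. Its H3K27ac percentiles were 75.0, 20.1 and 72.3. The cyclic value came from a peak of 443 bp before the lower-coordinate end of the gene, at chr3:93167759-93168201, away from the H3K4me3 peak. The GD15M_CM value came from a shorter peak of 247 bp, with a −log10 p of 6.22 against 6.38 for the cyclic one. It lay within the H3K4me3 peak, beside an H3K27ac peak of 1535 bp at the 72.1st percentile. Where the strongest H3K4me3 peak of GD15M_CM lay, at chr3:93183368-93185985, H3K27ac was at 75.0 in GD15M_CM, 20.1 in GD15M_LM and 2.08 in CD15M_CM. Read at that peak, EPCAM had the same order as CDH1 between the circular muscles, with pregnant above cyclic.

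KRT8 and KRT18 encode the keratins that pair into the first filaments of simple epithelia. KRT8 (GeneID 100152077, chr5:18172423-18180277) had H3K4me3 at 81.4 in GD15M_CM, 59.0 in GD15M_LM and 84.5 in CD15M_CM, and H3K27ac at 76.1, 42.3 and 84.9. KRT18 (GeneID 100126286, chr5:18217686-18221432), on the same chromosome, had H3K4me3 at 75.1, 59.1 and 87.5. Its H3K27ac was at 84.1 in GD15M_CM, 0 in GD15M_LM and 44.3 in CD15M_CM. For both keratins the H3K4me3 value was highest in cyclic circular muscle and lowest in longitudinal muscle. Of the strongest H3K4me3 peaks, the cyclic ones were also the longest, at 5251 bp for KRT8 and 4131 bp for KRT18. They were 2989 and 2686 bp in GD15M_CM and 1636 and 1247 bp in GD15M_LM. GD15M_CM had 3 peaks at each gene, where CD15M_CM had 1. Together these 3 were 5369 bp long at KRT8, more than the cyclic peak, and 3318 bp at KRT18, less than it. In GD15M_CM the H3K27ac peak of KRT18 was 2631 bp long and in CD15M_CM 377 bp.

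KRT19 (GeneID 100515339, chr12:21115453-21119115) encodes a keratin of simple and glandular epithelia. It had the widest H3K4me3 difference between the layers among the 10 genes, at 79.5 in GD15M_CM, 12.9 in GD15M_LM and 78.5 in CD15M_CM. Fold enrichments were 15.3, 3.2 and 17.6 and the −log10 p of the peaks 93.7, 7.53 and 126. Of all genes with an H3K4me3 peak in either list of the pregnant layers, 0.215% had a difference as large as that of KRT19. H3K27ac at KRT19 was at 57.9, 0 and 64.2, with 8 peaks in GD15M_CM, none in GD15M_LM and 3 in CD15M_CM. These peaks covered 4983, 0 and 1631 bp. One of the H3K27ac peaks also lay in the window of KRT15, a keratin of stratified epithelia. Within 1 kb of the gene the H3K27ac of GD15M_CM differed by -30.5 percentile points from that of CD15M_CM and by 33.8 from that of GD15M_LM. Genes for keratins resemble each other in sequence, and how far reads were shared among them was not tested.

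CLDN3 and CLDN4 encode tight junction claudins and lie near each other on chromosome 3. CLDN3 (GeneID 431781, chr3:11019073-11020102) had H3K4me3 at 89.5 in GD15M_CM, 65.8 in GD15M_LM and 78.1 in CD15M_CM, in peaks of 6923, 3707 and 6764 bp that spanned the whole gene. Its H3K27ac percentiles were closer together, at 81.2, 70.7 and 61.8. The summed lengths of the H3K27ac peaks that met the window were not close: 6877, 948 and 1278 bp, counting parts beyond the window. At CLDN3 the layers therefore differed in the extent of acetylation more than in the rank of the strongest peak.

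CLDN4 (GeneID 733578, chr3:11039711-11053930) was the exception among the 10 genes. H3K4me3 was at 75.2, 58.5 and 68.5, but H3K27ac was at 85.0 in GD15M_CM, 92.3 in GD15M_LM and 75.7 in CD15M_CM, so that the longitudinal muscle was highest. The strongest GD15M_LM H3K27ac peak, of 3135 bp at chr3:11048782-11051916, lay inside CLDN4 and also in the window of METTL27, which starts 891 bp beyond CLDN4. The strongest GD15M_LM H3K4me3 peak of the CLDN4 window was shared with METTL27 and TMEM270. At the strongest GD15M_CM H3K4me3 peak, chr3:11039227-11041641, H3K4me3 was at 75.2 in GD15M_CM, 52.5 in GD15M_LM and 68.5 in CD15M_CM. H3K27ac at this place was at 31.1, 61.9 and 52.1. There too the longitudinal muscle had the highest H3K27ac rank, while its H3K27ac peaks covered fewer bases (53.7% of the site) than those of GD15M_CM (96.4%).

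FOXA2 (GeneID 100513828, chr17:29997397-30001704) encodes the transcription factor needed for uterine gland development. It had the highest H3K4me3 of the 10 genes in GD15M_CM, at the 95.6th percentile, with 60.3 in GD15M_LM and 71.9 in CD15M_CM. The corresponding fold enrichments were 24.8, 9.29 and 13.8. H3K27ac was at 90.7 in GD15M_CM, 0 in GD15M_LM and 52.8 in CD15M_CM. FOXA2 was therefore highest in pregnant circular muscle for both marks, by 23.7 percentile points for H3K4me3 and 37.8 for H3K27ac over cyclic circular muscle. The width of H3K4me3 was not lower in the cyclic tissue. The peaks that met the window, with their parts beyond it, were together 10731, 4177 and 11026 bp long. The H3K27ac peaks that met the window were together 8106, 0 and 1716 bp long. Some of these peaks also lay in the window of LOC110257410, which ends 2067 bp before FOXA2. With each peak given to its nearest gene, the H3K27ac difference between the circular muscles was 62.5.

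ELF3 (GeneID 100524949, chr10:24237852-24242266), an ETS factor of epithelial cells, had the lowest H3K4me3 of the 10 genes in each list. H3K4me3 was at 47.3 in GD15M_CM, 0 in GD15M_LM and 11.7 in CD15M_CM, and the −log10 p of the peaks were 17.7 in GD15M_CM and 5.87 in CD15M_CM. H3K27ac was at 33.2, 32.2 and 18.6. The GD15M_LM peak lay outside the strongest GD15M_CM H3K4me3 peak, where H3K27ac was at 30.2, 0 and 1.54 in the 3 tissues. Peaks in this window were partly shared with RNPEP, which ends 2331 bp before ELF3.

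ESRP1 (GeneID 100512961, chr4:41993944-42061706) encodes a splicing regulator that sets epithelial isoforms. Its H3K4me3 was at 79.4 in GD15M_CM, 59.4 in GD15M_LM and 85.5 in CD15M_CM, in peaks of 5342, 3776 and 5237 bp. H3K27ac was at 66.0, 34.7 and 84.3, with 3, 1 and 3 peaks. The order matched that of KRT8 in both marks, with cyclic circular muscle first and longitudinal muscle last. The H3K27ac difference between the circular muscles, pregnant minus cyclic, was -18.2, and it ran from -25.0 with equal numbers of top peaks to 2.82 under a ranking by −log10 p.

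**Figure D2:**
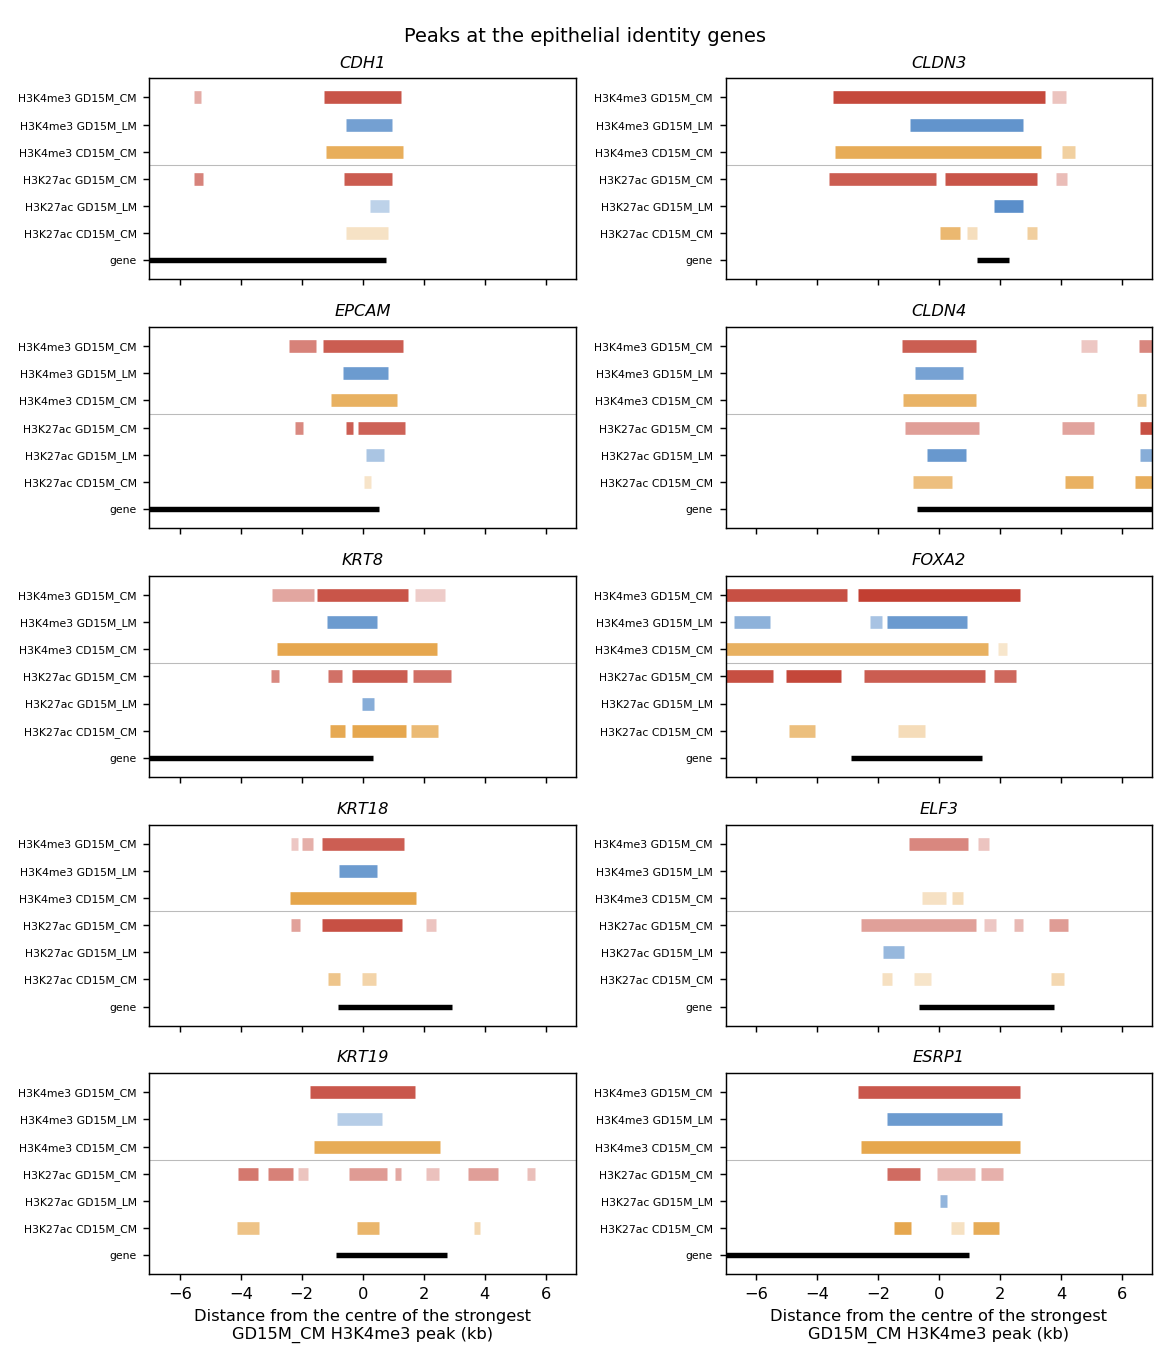
Peaks of the 6 lists in the windows of the 10 epithelial genes, drawn against distance in kb from the centre of the strongest GD15M_CM H3K4me3 peak, with the gene as a black bar and darker colour for a higher percentile. Red is GD15M_CM, blue GD15M_LM and orange CD15M_CM, and the view stops at 7 kb on both sides. The blue bars are shorter than the red ones at 10 of the 10 sites for H3K4me3 (none at ELF3), and KRT18, KRT19 and FOXA2 have no blue bar for H3K27ac.

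The first comparison asked how the 2 muscle layers of pregnant gilts differed. For H3K4me3, 10 of 10 epithelial genes were ranked higher in GD15M_CM than in GD15M_LM, as were 51.7% of all genes. The differences ran from 16.0 at KRT18 to 66.5 at KRT19, with a median of 23.1. CDH1, KRT8, KRT19, CLDN3, FOXA2 and ELF3, 6 of 10, were past 20 percentile points, and ESRP1 was just under that size. None was past 20 in the other direction. Of 17636 genes with a peak in either list, 7.46% were past 20 in the direction of GD15M_CM and 8.42% in that of GD15M_LM, and their median difference was 0.401. Among 13691 genes whose GD15M_CM percentile lay in the range of the epithelial genes, a set chosen after the data were seen, 6.24% were past 20 in the direction of GD15M_CM.

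For H3K27ac, 9 of 10 epithelial genes (57.2% of all genes) were ranked higher in GD15M_CM than in GD15M_LM and CLDN4 was ranked lower, with a difference of -7.25 percentile points. CDH1, EPCAM, KRT8, KRT18, KRT19, FOXA2 and ESRP1, 7 of 10, were past 20, and none was past 20 in the direction of GD15M_LM. The background for these was 21.5% and 14.2% of genes, or 16.5% and 22.4% when equal numbers of top peaks were taken from both lists, and under that setting 6 epithelial genes were past 20, with ESRP1 at 17.7. Among 9237 genes whose GD15M_CM percentile lay in the range of the epithelial genes, 26.1% were past 20 in the direction of GD15M_CM. The median difference was 44.3 for the epithelial genes and 2.3 for all genes (32.6 and -1.2 with equal numbers of top peaks), and the widest was 90.7 at FOXA2. With a stricter threshold on peaks (fold enrichment 5 or more with a −log10 p of 10 or more), H3K27ac was left at FOXA2 alone in GD15M_CM, at CLDN4 alone in GD15M_LM and at none of the 10 in CD15M_CM. That threshold kept H3K27ac at 31.3%, 35.7% and 30.5% of all genes. Under it CLDN4 was past 20 in the direction of GD15M_LM, at -61.0, as were 38.3% of all genes. CLDN4 was also past 20 in that direction at the strongest GD15M_CM H3K4me3 peak, at -30.8. The strongest H3K27ac peaks of the windows had fold enrichments from 2.4 to 6.65.

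The second comparison was between circular muscle of pregnant and of cyclic gilts, and used the same GD15M_CM lists as the first. H3K4me3 was higher in GD15M_CM at 7 of 10 epithelial genes (40.7% of all genes) and higher in CD15M_CM at KRT8, KRT18 and ESRP1. FOXA2 and ELF3 were past 20 percentile points in favour of GD15M_CM, by 23.7 and 35.6, and none in favour of CD15M_CM, against 3.38% and 8.98% of all genes. With the stricter peaks ELF3 had no H3K4me3 in either list and KRT18 was past 20 in favour of CD15M_CM, at -25.5. Ranked by −log10 p, the FOXA2 difference was 18.9. The median difference was 4.91, within a range of -12.4 to 35.6, and that of all genes was -2.13. The H3K4me3 of most epithelial genes was therefore close between the circular muscles.

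H3K27ac was higher in GD15M_CM than in CD15M_CM at 7 of 10 epithelial genes (49.2% of all genes), and higher in CD15M_CM at KRT8, KRT19 and ESRP1. CDH1 (71.4), KRT18 (39.9) and FOXA2 (37.8) were past 20 percentile points in favour of GD15M_CM and none in favour of CD15M_CM, against 15.5% and 17.6% of all genes. In favour of CD15M_CM, ESRP1 was past 20 with equal numbers of top peaks (-25.0) and with neighbouring peaks joined (-20.9), and KRT19 in a window of 1 kb (-30.5). The median was 12.0 for the epithelial genes and -0.156 for all genes. The spread was wide, from -18.2 at ESRP1 to 71.4 at CDH1, so that no single direction described the 10 genes.

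GD15M_LM was the lowest of the 3 lists at 10 of 10 epithelial genes for H3K4me3. The share of all genes lowest in GD15M_LM by any margin was not counted, for either mark. At CDH1, KRT8 and KRT19 it was at least 20 percentile points under both circular muscle lists, which held for 3.94% of all genes. For H3K27ac it was lowest at EPCAM, KRT8, KRT18, KRT19, FOXA2 and ESRP1, and at each of these 6 by at least 20 points, which held for 12.2% of all genes. Read at the strongest GD15M_CM H3K4me3 peak alone, 4 genes were left past that size, KRT8, KRT18, KRT19 and ESRP1. There EPCAM was lowest in CD15M_CM (2.08 against 20.1 in GD15M_LM), and FOXA2 was at 13.2 in CD15M_CM against 0. In the full windows the cyclic circular muscle had the lowest H3K27ac rank at CDH1, CLDN3, CLDN4 and ELF3.

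The peaks also differed in extent and position. The strongest GD15M_CM H3K4me3 peak met an end of the gene at 10 of the 10 epithelial genes, with its centre at most 1414 bp from that end, while 71.7% of all genes with such a peak had it at an end. These 10 sites spanned 36239 bp. H3K4me3 peaks of CD15M_CM covered 93.1% of these bases and those of GD15M_LM 53.5%. Over the sites of all genes, set in the same way, the shares were 95.9% and 93.2%. The longitudinal H3K4me3 of the epithelial genes was therefore short as well as low, and its share ranged from none at ELF3 to 70.7% at ESRP1.

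H3K27ac covered 77.4% of the bases of the 10 sites in GD15M_CM, 11.2% in GD15M_LM and 34.0% in CD15M_CM. Over the sites of all genes it covered 71.9%, 61.2% and 70.8%. KRT18 was covered to 98.0%, 0% and 30.6%, FOXA2 to 87.7%, 0% and 16.3%, and CLDN3 to 92.2%, 13.7% and 34.5% in the same order. KRT8 differed from these, with 75.4%, 13.9% and 75.0%. Sites set from GD15M_CM favour that tissue by construction, so they were also set from the other lists. From the 9 H3K4me3 peaks of GD15M_LM, H3K27ac covered 89.4%, 22.5% and 49.1% of 19288 bp, against 66.8%, 59.9% and 68.9% for all genes. From the 10 peaks of CD15M_CM the shares were 71.5%, 9.32% and 30.7%. The order GD15M_CM, CD15M_CM, GD15M_LM was the same from each of the 3 starting lists. Thus, in the cyclic circular muscle these sites had nearly the H3K4me3 extent of GD15M_CM and less of its H3K27ac extent.

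**Figure D3:**
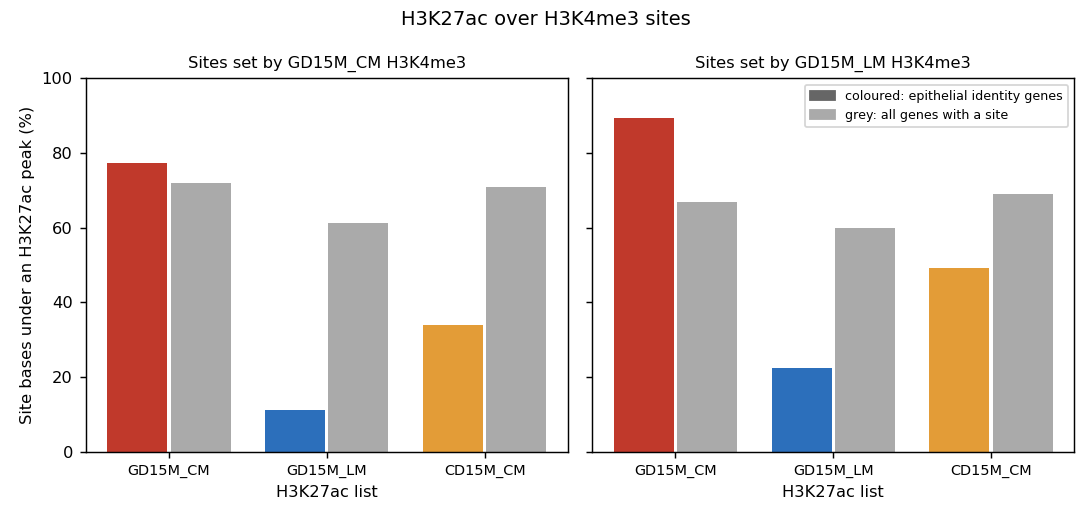
Share of the bases of H3K4me3 sites that lay under an H3K27ac peak, in percent, for sites set by the strongest GD15M_CM peak (left) and GD15M_LM peak (right) of each gene. Coloured bars are the epithelial genes and grey bars all genes with a site, for which the share was 59.9% to 71.9%. The epithelial genes lie above the grey bar in GD15M_CM and below it in GD15M_LM and CD15M_CM.

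H3K4me3 ranked above H3K27ac at 8 of the 10 epithelial genes in GD15M_CM, 7 in GD15M_LM and 6 in CD15M_CM. Of all genes with a peak of either mark, 36.9%, 45.0% and 42.1% had this order. In GD15M_CM the exceptions were KRT18 and CLDN4. Ranked by −log10 p, the GD15M_CM count was 5.

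Other genes of epithelial character were described with 3 further lists. Of 20 genes for junctions and polarity, 20 had H3K4me3 in each list, and the medians were 82.4 in GD15M_CM, 62.9 in GD15M_LM and 77.4 in CD15M_CM. Values were higher in GD15M_CM than in GD15M_LM at 16 of them, by 20 or more at 8 (7.46% of all genes). GD15M_LM was higher by 20 or more at 1 (8.42% of all genes). H3K27ac medians were 77.1, 61.4 and 73.6. For this mark 13 genes were higher in GD15M_CM than in GD15M_LM and 7 were lower. Past 20 points were 8 and 1 of them, against 21.5% and 14.2% of all genes. PATJ, a polarity scaffold, and CRB3, a membrane protein of the same complex, had the highest H3K4me3, with PATJ at 95.0, 84.2 and 84.6 and CRB3 at 86.5, 81.8 and 89.3. RAB25, a GTPase of epithelial trafficking, was among the lowest, at 58.9, 25.6 and 47.1, and EVPL (envoplakin) was at 20.4, 22.4 and 57.2. DSP (desmoplakin) and MARVELD3 (a tight junction protein) had the lowest H3K27ac, with none in GD15M_LM.

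Of 14 epithelial transcription and splicing regulators, 12, 11 and 12 had H3K4me3 in GD15M_CM, GD15M_LM and CD15M_CM and 10, 6 and 12 had H3K27ac. The H3K4me3 medians were 67.8, 52.3 and 70.6 and the H3K27ac medians 76.2, 0 and 60.9. SOX17, a regulator of endoderm and of uterine glands, had H3K4me3 at 94.1, 64.6 and 86.5 and H3K27ac at 94.2, 0 and 72.9. MSX1, a homeobox factor of the receptive uterus, had H3K4me3 at 95.1, 67.4 and 95.8 and H3K27ac at 95.2, 80.7 and 77.3. GRHL2, a driver of epithelial junction genes that is named after its values were seen, had H3K27ac at 94.6, 0 and 69.9. TP63 and ELF5, factors of stratified and of mammary or placental epithelium, had no H3K4me3 in any list. Like FOXA2, both SOX17 and GRHL2 thus had H3K27ac in circular muscle of both states and none in longitudinal muscle. The endothelial gene ERG had this pattern too, with H3K27ac at 82.0, 0 and 74.3. Of the 14 regulators, 5 were past 20 percentile points for H3K27ac in the direction of GD15M_CM, against 21.5% of all genes. In that of GD15M_LM there was 1, GRHL1 at 28.3, 58.3 and 58.5, against 14.2% of all genes.

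Genes of the uterine gland and lumen were marked less evenly. Of 15, 12 had H3K4me3 in GD15M_CM, 9 in GD15M_LM and 12 in CD15M_CM, with medians of 54.8, 41.8 and 55.9, and H3K27ac medians of 63.2, 23.0 and 65.7. MUC1, the mucin of the apical surface, had H3K4me3 at 83.2, 57.2 and 79.2 and SPINT2, a protease inhibitor, at 79.5, 72.9 and 85.9. WFDC2, a secreted gland protein, was at 4.96, 0 and 0, MUC4, a membrane mucin, at 0 in each list, and SAL1 (salivary lipocalin) at 0, 0 and 54.0. For H3K27ac, 7 of the 15 were past 20 percentile points in the direction of GD15M_CM and 2 in that of GD15M_LM. Of all genes, 21.5% and 14.2% were. The 2 were KRT7 at 63.2, 88.1 and 86.8 and PROM1 at 55.1, 86.7 and 85.5, named after their values were seen. Of 15 genes, 5 were past 20 percentile points for H3K4me3 in the direction of GD15M_CM and 1 in that of GD15M_LM. The shares of all genes were 7.46% and 8.42%.

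**Figure D4:**
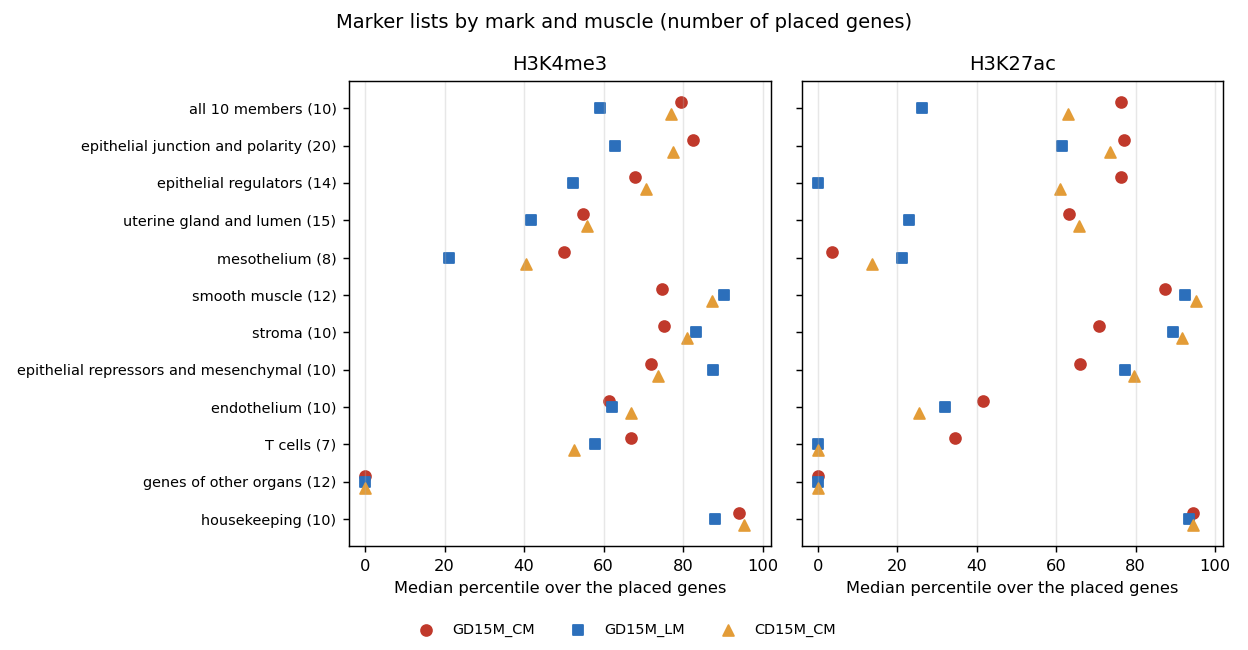
Median percentile over the placed genes of each marker list, with the number of placed genes in brackets, for H3K4me3 (left) and H3K27ac (right) in the 3 tissues. The epithelial rows have GD15M_LM leftmost for both marks, while smooth muscle has GD15M_CM leftmost.

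Lists for other cells moved in different ways. The 12 smooth muscle genes had H3K4me3 medians of 74.7 in GD15M_CM, 90.2 in GD15M_LM and 87.3 in CD15M_CM. They were higher in GD15M_LM than in GD15M_CM at 11 of 12, against 48.3% of all genes, and by 20 points or more at 1 (8.42%). This direction was opposite to that of the epithelial genes. For H3K27ac, 7 of the 12 were higher in GD15M_LM and 5 in GD15M_CM. SYNPO2 (synaptopodin 2), the gene past 20 points for H3K4me3, was at 74.3, 97.5 and 91.5. The 10 genes of mesenchymal character, which include the E-cadherin repressors ZEB1, ZEB2, SNAI1 and SNAI2, had H3K4me3 medians of 71.8, 87.4 and 73.6. They were higher in GD15M_LM than in GD15M_CM at 9 of 10 (48.3% of all genes), by 20 points or more at 1 (8.42%). TWIST1 was at 75.8, 91.1 and 98.6 and ZEB2 at 87.5, 90.8 and 80.2. Stroma had medians of 75.1, 83.2 and 81.0. For T cells the H3K4me3 medians were 66.8, 57.8 and 52.6. For this mark 7 of 7 genes were higher in GD15M_CM than in CD15M_CM (40.7% of all genes), none by 20 points. CD3D and CD3G shared their strongest peak, so these 2 were not separate. LCK, a T cell kinase, was at 90.9, 63.2 and 73.3. Endothelial genes had medians of 61.3, 62.2 and 66.8, and for 12 genes of other organs the median was 0 in each list and mark. For H3K27ac, 4 of the 7 T cell genes were higher in GD15M_CM than in CD15M_CM and 0 were lower. By 20 points or more, 2 were higher in GD15M_CM (15.5% of all genes). What part the makeup of the samples had in the epithelial values was not tested.

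The housekeeping genes had H3K4me3 medians of 94.1, 87.9 and 95.2 and H3K27ac medians of 94.3, 93.4 and 94.4. Of these 10 genes, 2 were past 20 percentile points for H3K4me3 in the direction of GD15M_CM (7.46% of all genes). These were ACTB at 94.9 against 66.8 and TBP at 91.4 against 69.5. They are named after their values were seen. A drop of this size in GD15M_LM was therefore also present at some genes that every cell uses.

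KRT8, KRT18 and KRT19 are also made by the mesothelium, the cell layer of the serosa that covers the longitudinal muscle. Of 8 mesothelial genes, 5 had H3K4me3 in GD15M_CM, 4 in GD15M_LM and 5 in CD15M_CM. WT1, which is also active in uterine muscle and stroma, was at 91.5, 99.2 and 96.8. BNC1 was at 87.8, 56.2 and 85.4, UPK3B at 54.3, 61.0 and 59.9, and KRT5 and UPK1B had no peak of either mark in any list. Over the 8 genes the H3K4me3 medians were 50 in GD15M_CM, 21.1 in GD15M_LM and 40.6 in CD15M_CM, lowest in GD15M_LM, and the H3K27ac medians were 3.54, 21.2 and 13.7, highest in GD15M_LM. The part of the mesothelium in the keratin values was not tested.

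The 5 protein-coding genes whose 6 percentiles were closest to the median profile of the epithelial genes, by Euclidean distance, were NPRL2, LOC100620869, FAM187B, KCNK5 and BTK, at distances of 9.45 to 12.3 percentile points. NPRL2 had H3K4me3 at 75.9, 58.5 and 71.5 and H3K27ac at 77.9, 25.2 and 69.6 in GD15M_CM, GD15M_LM and CD15M_CM. At the edge of the 3 kb window, the farthest peak inside lay 2929 bp from KRT8 (percentile 10.6) and the nearest outside 3201 bp from KRT8 (percentile 12.7), both H3K27ac. CDH1 had peaks of each list just outside, at 3634 to 3897 bp, with H3K27ac at 89.7 in GD15M_CM, 52.9 in GD15M_LM and 73.2 in CD15M_CM. A window of 1 kb moved the H3K27ac difference between the circular muscles from 2.73 to 72.9 at EPCAM and from 37.8 to 77.4 at FOXA2, so the window size set several of these values.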

How the data were processed

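CUT&Tag libraries for H3K4me3, H3K27ac and IgG came from 3 myometrium tissues of Yorkshire gilts (n = 2 gilts each). The endometrium had been cut away before the layers were separated. The authors mapped reads with BWA, called peaks with MACS2 2.2.6 on the pooled reads of both gilts. The deposited lists give, per the authors' peak caller, fold enrichment (a ratio over the control, whose scaling is not given in the sources used here) and −log10 p values. The header of that second column is unreadable, and its identity was checked against the study's own tables. A last unlabelled column was not used.

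Peaks were joined to 28210 RefSeq genes of Sscrofa11.1 with Python 3.11.15, pandas 2.3.3 and NumPy 2.4.6, and drawn with Matplotlib 3.10.9. The reference used here gives no strand, so the end of a gene stands for either end. Overlap and ranking code was tested on simulated data. Percentiles are shares of the peaks of a list at or below a fold enrichment. Because each group is 1 pooled list, no test was made and the spread between gilts is unknown. PAX8, MUC16, ITLN1, MSLN and ZAP70 could not be placed. The genes, marker lists and the 20-point size were chosen with earlier results of these data known. Besides the 10 genes, those named are the 2 highest and 2 lowest of each list by mean percentile of a mark, genes that share peaks with the 10, and the 5 nearest profiles. GRHL1, GRHL2, KRT7, PROM1, ACTB, TBP, SNAI2 and CD3G were named outside that rule, after their values were seen. Alternatives were stricter peaks, rank by −log10 p, equal numbers of top peaks, joined peaks, a 1 kb window, a 50% overlap and the nearest gene.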

Additional observations from a re-analysis of the deposited data

How the results depend on the processing

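Of 40 differences between lists at the epithelial genes, 18 were 20 percentile points or more, and none of these turned to the opposite direction under 9 other settings (162 checks). Calls were lost, though: 10 of the 18 went to 0 with stricter peaks, 8 for H3K27ac and both for ELF3 H3K4me3, 1 fell under 20 by rank of −log10 p (FOXA2 H3K4me3, 18.9) and 1 with equal numbers of top peaks (ESRP1 H3K27ac, 17.7). With peaks of fold enrichment 5 or more and −log10 p of 10 or more, H3K27ac was present at 1 gene in GD15M_CM, 1 in GD15M_LM and 0 in CD15M_CM. Under that threshold 1 gene was higher in GD15M_CM than in GD15M_LM and 1, CLDN4, was higher in GD15M_LM. Between the circular muscles 1 was higher in GD15M_CM and 0 in CD15M_CM, since most H3K27ac peaks were removed. The median H3K27ac differences were then 0. With peaks ranked by −log10 p, H3K4me3 was above H3K27ac at 5 genes in GD15M_CM, and CD15M_CM was above GD15M_CM at 1 gene for H3K4me3 and 1 for H3K27ac. The cause was not tested. With equal numbers of top peaks, GD15M_LM was above GD15M_CM for H3K27ac at 2 genes, and the cause was not tested. The median H3K4me3 difference between the layers was 22.3 to 36.7 over the planned settings. Reading gene ends alone and reading the strongest H3K4me3 peak alone were settings chosen after seeing the data. No paired analysis was possible because the replicates were pooled before peak calling, which also prevents leaving out a gilt. A window around the start of transcription was not run, since strand was not used here. The lists carry no read counts and the read numbers reported by the authors were not used. Depth therefore sets a limit, not measured here, on genes listed without a peak.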
